A study of Mus musculus with 46 samples.

Results

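The chaperonin CCT (also called TRiC) is a ring-shaped machine of the cytosol that encloses newly made proteins and folds them with energy from ATP. Each of its stacked rings holds 8 different subunits, which in mouse are encoded by Tcp1 (the founding, alpha subunit), Cct2 (beta), Cct3 (gamma), Cct4 (delta), Cct5 (epsilon), Cct6a (zeta), Cct7 (eta) and Cct8 (theta). Actins and tubulins are its best known clients. The 8 genes were taken by symbol, and all 8 stood once among the 9857 symbols that the DMSO and torin 1 tables both list.

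The cells were EPP2, a murine pancreatic cancer line with doxycycline-inducible Cas9, grown from single-cell-derived clones. Ctu1 encodes the enzyme that adds sulphur to uridine 34 (U34), the wobble base of the tRNAs that read AAA, GAA and CAA codons (written VAA). Ctu1 was knocked out by inducing Cas9 with 300 ng/ml doxycycline, 4 days ahead per the labels (Ctu1 iKO, or Ctu1-deficient cells). Control cells carried guide RNAs to non-coding regions or were left without doxycycline, and the labels give only control. If they had no doxycycline, effects of doxycycline and Cas9 induction cannot be told apart from loss of Ctu1 in the genotype comparisons. Both kinds of cells were held for 2 h in DMSO, the solvent, or in 300 nM torin 1, an inhibitor of the mTOR kinase, which drives translation of many mRNAs in growing cells. Footprints, the mRNA fragments shielded by ribosomes, and poly(A) RNA were sequenced from 6 control cultures with DMSO, 6 control cultures with torin 1, 5 Ctu1 iKO cultures with DMSO and 6 Ctu1 iKO cultures with torin 1. Of the RNA-seq libraries, replicates 1 to 3 of each group were used. The methods name fewer biological replicates than there are replicate numbers, while the legends call the replicates of the footprints independent experiments. If they are not, p-values measure the spread between these samples, which may be partly technical.

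The 23 footprint libraries held 4602092 to 52907878 counts and the 12 RNA-seq libraries used held 129881946 to 293648854. In every footprint library, the treatment label matched the expression of the other libraries. Among RNA-seq replicates 4 to 6, 6 of 11 libraries went against their treatment label. Ctu1 itself reached 1.58 to 3.43 counts per 1000000 (CPM) in footprints of control cells with DMSO and 1.30 to 2.28 CPM in Ctu1 iKO cells, and the groups overlapped at 16 to 143 counts per library (edgeR, log2 difference -0.54 ± 0.29 SE, adjusted p = 0.353). Its transcript did not separate the genotypes either (4.54 to 4.76 against 4.37 to 4.96 CPM). A Cas9 cut need not remove a transcript, so Ctu1 counts test the genotype labels only weakly. Of the markers of the cell line, 4 of 4 mesenchymal genes (such as Vim) and 3 of 6 epithelial genes (Krt8, Krt18 and Krt19) were listed, with 2 of 4 fibroblast markers (Col1a1 and Pdgfra), 0 of 4 acinar, 0 of 3 endocrine, 0 of 3 leukocyte and 0 of 2 endothelial markers.

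The subunits were rich in the codons that the Ctu1-modified tRNAs read. In RefSeq coding sequences of the mouse build GRCm38.p6, AAA made up 2.39% to 4.51% of the codons of the 8 subunits (median 3.23%), and all 8 were above the median of 10192 listed genes, 2.15%. GAA was above its median (2.73%) in 7 of 8 subunits. CAA was above its median (1.03%) in 4 of 8. For the 3 codons together, the subunits had a median of 8.61% against 6.02% over all genes, with Cct6a at 9.84%, Cct8 at 9.12%, Cct4 at 8.91%, Tcp1 at 8.81%, Cct2 at 8.41%, Cct5 at 7.58%, Cct3 at 6.42% and Cct7 at 4.78%. Cct7 stood apart, since it alone lay below the median, with a GAA share of 1.29%. The RefSeq coding sequence of Cct6a is incomplete in this assembly, and its values come from the part that could be read.

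**Figure D1:**
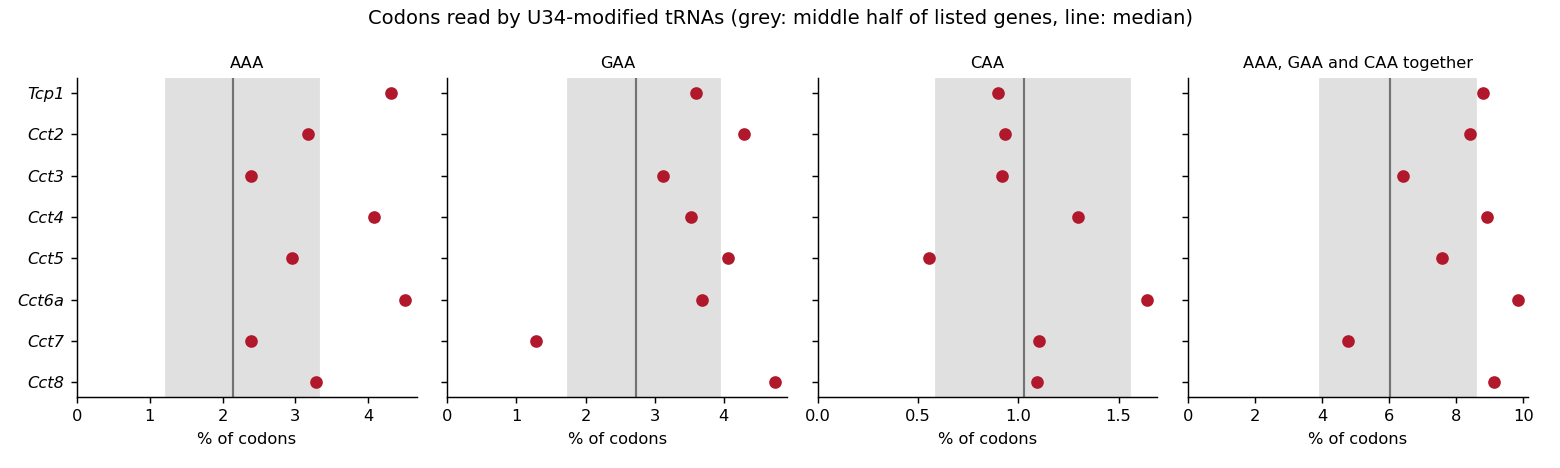
Share of AAA, GAA, CAA and all 3 codons among the codons of each CCT subunit (red points, x axes in percent). The grey band spans the quartiles of the 10192 listed genes with a coding sequence and the line is their median, and Cct7 is the only subunit below the median for the 3 codons together.

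The 20-codon runs densest in these codons are given for Cct2 and Cct4, the subunits whose footprints changed most with torin 1, for Tcp1, and for Cct7, the subunit with the fewest such codons. In lower case with AAA, GAA and CAA codons in capitals, they read in frame on the coding strand as follows.
Cct2 (chr10:117056068-117056127, minus strand, codons 339 to 358): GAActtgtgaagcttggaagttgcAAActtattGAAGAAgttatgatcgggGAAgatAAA
Cct4 (chr11:22994298-22994357, plus strand, codons 61 to 80): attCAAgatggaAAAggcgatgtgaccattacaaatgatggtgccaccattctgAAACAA
Tcp1 (chr17:12922623-12922682, plus strand, codons 330 to 349): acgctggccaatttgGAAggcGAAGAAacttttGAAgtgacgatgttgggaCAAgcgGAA
Cct7 (chr6:85461108-85461167, plus strand, codons 111 to 130): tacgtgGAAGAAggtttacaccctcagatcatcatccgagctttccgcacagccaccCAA
Each run lies in 1 coding exon. The runs of Cct2 and Tcp1 held 6 VAA codons each, that of Cct4 held 4 and that of Cct7 held 3. The runs not shown held 5 in Cct3 and Cct8 and 4 in Cct5, so their order is not that of the whole coding sequences. Over the whole coding sequence, AAA was chosen for 60.0% of the lysines of Tcp1 and 56.4% of those of Cct4, against a median of 37.8% over all genes. Of the 8 subunits, 5 lay above that median, and Cct3 (37.1%), Cct5 (36.4%) and Cct7 (31.0%) lay below it. AAG, the other lysine codon, was also above its median (3.42% of codons) in 6 of 8 subunits, so the subunits held many lysine codons of both kinds.

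Many mRNAs whose translation is sensitive to mTOR inhibition, those of ribosomal proteins among them, begin with a C followed by an unbroken run of C and T bases, the TOP motif. RefSeq promoters (GRCm38.p6) gave 9 annotated start sites for 7 of the subunits, and Cct4 had no entry. In 0 of these 9 did the first base start a C followed by at least 4 bases that are each C or T on the coding strand, which was the case in 2.32% of 10695 promoters of listed genes and 20.3% of 69 promoters of ribosomal protein genes. Most promoters of ribosomal protein genes thus lacked the run at the annotated start too, so 0 of 9 cannot show that the subunits lack the motif. Within 15 bases to either side of the start, the same run stood in 2 of 9 (1 of 2 Cct2 starts, and Tcp1). This compares with 37.2% of all promoters and 59.4% of those of ribosomal protein genes. The windows around the starts of Cct2, Tcp1 and Cct8 follow, with the longest run of C and T bases in capitals and the annotated start at the 16th base.
Cct2, upstream start (chr10:117063838-117063867, minus strand): ccggCCCagcccgccacgcaggaggcggaa
Cct2, downstream start (chr10:117063361-117063390, minus strand): cgCCCTCTTCggggcggggctggaagggcg
Tcp1 (chr17:12916314-12916343, plus strand): gcagCCCCCTacttccggcgttttcagttt
Cct8 (chr16:87495855-87495884, minus strand): cggcgccgaggcccaTTCCCagcaggcagt
In Cct8 the pyrimidine run opened at the annotated start, but with a T. These matches describe the letters in the windows only.

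In control cells with DMSO, all 8 subunits were abundant. Per kilobase of coding sequence and in units of CPM scaled by the trimmed mean of M values (TMM), Cct8 had the most footprints, 982 ± 105 per kb (SD, n = 6), above the level of 97.8% of 9618 listed genes. It was followed by Cct3 with 776 ± 139, Cct7 with 740.3 ± 76.9, Cct2 with 724.9 ± 44.7, Tcp1 with 621.8 ± 73.6, Cct4 with 493.1 ± 29.8 and Cct5 with 320.3 ± 27.3 per kb. Cct3, Cct7 and Cct2 did not differ beyond their spread, since their libraries ranged from 575 to 959, 673 to 878 and 659 to 782 per kb. Cct6a was left out of this order because of its incomplete coding sequence. With transcript length in place of coding length, Cct2 and Cct7 exchanged places.

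The order of the transcripts was different. Per kilobase of transcript, Cct3 was highest in RNA-seq (508.2 ± 44.8 CPM per kb, n = 3), followed by Cct8 (408.1 ± 8.38), Cct7 (329.2 ± 11.7), Tcp1 (313.3 ± 23.2), Cct2 (302.6 ± 4.64), Cct5 (231.4 ± 3.83) and Cct4 (178.5 ± 16.1). Cct4 thus stood below Cct5 in transcripts and above it in footprints. In the ratio of footprint to RNA CPM within the same culture, on a log2 scale and without length, Cct4 was highest with 1.12 ± 0.06 (SD, n = 3 cultures), ahead of Cct2 with 0.88 ± 0.11. Cct6a reached 0.73 ± 0.13, Cct8 0.60 ± 0.06 and Cct7 0.52 ± 0.05. The lowest ratios belonged to Tcp1 (0.28 ± 0.11), Cct3 (0.19 ± 0.17) and Cct5 (0.15 ± 0.10). Some copies of these genes elsewhere in the genome could cost reads when only unique alignments are counted. Of the 27-base words of the coding sequence, 21.6% recur outside the gene for Cct3, 15.5% for Cct7, 7.21% for Cct4, 5.84% for Tcp1 and 0.695% for Cct2, and none for Cct5, Cct6a and Cct8. Exons of Tcp1 also share 571 of 2499 bases with Acat3 and 235 with Mrpl18 on the opposite strand. Shorter overlaps of this kind link Cct7 with Pradc1 (231 bases), Cct8 with Usp16 (191) and Cct6a with Psph (88). Whether the footprint counting used strand is not given in the sources used here, so those reads are uncertain.

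What torin 1 did to the chaperonin in control cells was the first question. Footprints on Cct2 fell by 24.4% and those on Cct4 fell by 21.7%, while the other 6 subunits did not pass the test. On Cct2, the control libraries with DMSO ranged from 1059 to 1257 CPM (median 1159) and those with torin 1 from 784 to 952 CPM (median 908). On Cct4, the ranges were 723 to 839 CPM (median 820) and 543 to 694 CPM (median 633). For both subunits, every torin 1 library lay below every DMSO library. The groups did not overlap in these 2 of 8 subunits and in 5.44% of 9856 genes. The log2 changes were -0.40 ± 0.08 for Cct2 (SE, edgeR quasi-likelihood test, adjusted p = 0.00443, n = 6 and 6) and -0.35 ± 0.08 for Cct4 (adjusted p = 0.0143). Tcp1 had 861 to 1161 CPM (median 1098) with DMSO and 737 to 979 CPM (median 938) with torin 1, with overlap (-0.24 ± 0.10, adjusted p = 0.204).

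The 2 called subunits make up 25% of the 8, where 7.24% of 9856 genes tested were called and 4.33% were called lower. The median log2 change over the 8 was -0.11 against 0.01 over all genes. In such bulk samples, fewer cells with a transcript and less of it per cell cannot be told apart. Cct3 (-0.01 ± 0.15), Cct8 (0.00 ± 0.10) and Cct6a (0.05 ± 0.08) had changes close to 0. Cct7 changed by -0.09 ± 0.09 and Cct5 by -0.13 ± 0.09. Over all genes, 287 were called higher and 427 lower, against 602 and 327 with scaling by library totals. That scaling moved the median of all genes to 0.10, left Cct2 at -0.31 (adjusted p = 0.0175), took the call from Cct4 (-0.26) and put Cct3 and Cct8 on the positive side (0.08 each).

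Same-numbered control libraries deviated together in footprints (r = 0.46 to 0.66 over genes, 6 pairs). With the replicate number as a block, 4 of 8 subunits fell with torin 1. The added ones were Tcp1 (-0.24 ± 0.04, adjusted p = 0.00126) and Cct5 (-0.13 ± 0.04, adjusted p = 0.0454), and 20.5% of all genes were called in that fit. No label names a batch, yet replicates 1 and 2 were low in most subunits. Within replicates 3 to 6, Cct2 (-0.36) and Cct4 (-0.32) were called, beside 6.57% of all genes. Within replicates 1 and 2 they had changes of -0.49 and -0.41 with no subunit called. Far fewer genes were called over all in that fit too (count in the last section), so the lost calls are not particular to the subunits.

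**Figure D2:**
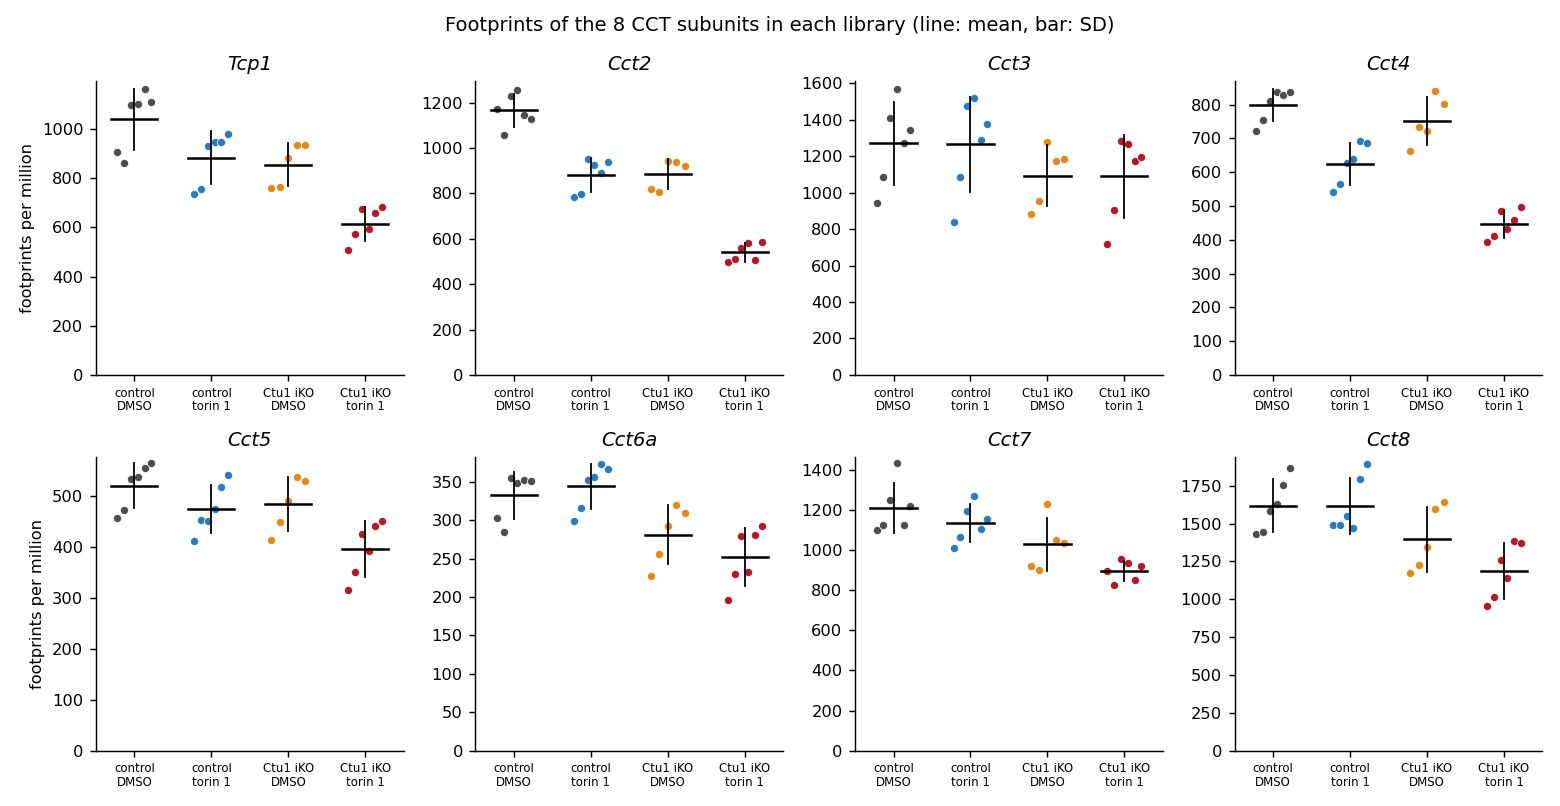
Footprints on each CCT subunit in TMM-scaled CPM (y axes from 0), with 1 point per library, replicates in numerical order from left to right, a line at the group mean and a bar of 1 SD. The torin 1 libraries of Cct2 and Cct4 lie below the DMSO libraries of the same genotype, whereas those of Cct3 overlap in both genotypes.

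In Ctu1-deficient cells, footprints on 3 subunits were lower with torin 1. Those on Cct4 fell by 41.0%, those on Cct2 fell by 39.3% and those on Tcp1 fell by 28.3%. Cct4 had 663, 734, 721, 841 and 803 CPM in the 5 cultures with DMSO and 392 to 496 CPM (median 446) in the 6 with torin 1. Cct2 had 820, 806, 943, 937 and 922 CPM with DMSO and 497 to 586 CPM (median 534) with torin 1. Tcp1 had 758, 764, 881, 936 and 934 CPM with DMSO and 508 to 683 CPM (median 627) with torin 1. In these 3 of 8 subunits, no torin 1 library reached the lowest DMSO library, and 8.16% of 9855 genes did not overlap in either direction. The log2 changes were -0.76 ± 0.09 for Cct4 (SE, edgeR, adjusted p = 9.46e-05), -0.72 ± 0.09 for Cct2 (adjusted p = 6.2e-05) and -0.48 ± 0.10 for Tcp1 (adjusted p = 0.00976). These 3 calls make up 37.5% of the subunits, beside 8% of 9855 genes called and 4.52% called lower.

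The remaining 5 subunits did not pass. Their changes were -0.29 ± 0.11 for Cct5 (edgeR, adjusted p = 0.147), -0.24 ± 0.13 for Cct8, -0.20 ± 0.09 for Cct7, -0.16 ± 0.13 for Cct6a and -0.01 ± 0.15 for Cct3. The median over the 8 was -0.27, against 0.02 over all genes. Scaled by library totals, which turned 343 genes called higher and 445 lower into 580 and 317, the 3 calls stood (-0.66, -0.62 and -0.38), the median of all genes was 0.11, and Cct3 turned to 0.09. The 3 calls also stood in replicates 3 to 6 alone (-0.77, -0.76 and -0.50, beside 8.42% of all genes called). In replicates 1 and 2 alone, Cct4 (-0.81) was called and Cct2 (-0.70) and Tcp1 (-0.51) were not, beside 1.49% of all genes called.

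The test of whether torin 1 acted differently in the 2 genotypes is the interaction. For Cct4, the log2 change with torin 1 was lower by 0.40 ± 0.12 in Ctu1-deficient than in control cells, and for Cct2 by 0.31 ± 0.11 (SE, edgeR). Neither passed over all genes (unadjusted p = 0.0023 and 0.00791, adjusted p = 0.212 and 0.477). No subunit was called, and 2 of 8 had an unadjusted p under 0.05, beside 4.67% of all genes. Over all genes, 0.639% of 9857 were called, all 63 of them lower. DESeq2 called 1 subunit, Cct4 (-0.41, adjusted p = 0.0461), and 1.09% of all genes. With the replicate number as a block, Cct4 and Cct2 were both called lower, with values and the count over all genes in the last section. Not all same-numbered samples behind that fit correlated (lowest r -0.04 in Ctu1-deficient cells and -0.10 between genotypes with DMSO). The interaction of the other subunits ran from -0.24 (Tcp1) to 0.00 (Cct3).

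The second question was what loss of Ctu1 changed without torin 1. Only Cct2 passed. Its footprints decreased by 23.9% from control to Ctu1 iKO cells (log2 difference -0.39 ± 0.08, edgeR, adjusted p = 0.0163, n = 5 and 6). Its 5 Ctu1 iKO libraries (806 to 943 CPM) all lay below the 6 control libraries (1059 to 1257 CPM), while 4.62% of 9857 genes did not overlap in either direction. The differences of the other 7 subunits were all negative, from -0.28 ± 0.10 in Tcp1 (adjusted p = 0.155) to -0.08 ± 0.08 in Cct4. The median over the 8 was -0.22, against 0.00 over all genes. One call of 8 (12.5%) stands beside 2.66% of 10397 genes called and 1.04% called lower. With library totals, the split over all genes was 218 higher and 80 lower against 169 and 108. No subunit was called in replicates 1 and 2 alone or 3 to 6 alone, where Cct2 had -0.46 and -0.34, and in the former no gene of the table was called. In replicates 3 to 6 alone, fewer genes were called over all as well (count in the last section), so the lost call is not particular to Cct2.

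With torin 1 in both arms, the count of called subunits was higher, though each genotype comparison shares its libraries with the torin 1 comparisons and the counts are not independent. Footprints on 6 of 8 subunits were lower in Ctu1-deficient cells (75%, beside 4.83% of 9913 genes called and 2.6% called lower). The differences were -0.71 ± 0.09 for Cct2 (SE, edgeR, adjusted p = 0.000199, n = 6 and 6), -0.52 ± 0.11 for Tcp1 (adjusted p = 0.0114) and -0.49 ± 0.10 for Cct4 (adjusted p = 0.00776). They were smaller for Cct6a (-0.45 ± 0.11, adjusted p = 0.03), Cct8 (-0.44 ± 0.12, adjusted p = 0.0418) and Cct7 (-0.34 ± 0.08, adjusted p = 0.029). Cct5 (-0.26 ± 0.11, adjusted p = 0.2) and Cct3 (-0.21 ± 0.17, adjusted p = 0.545) did not pass. The median over the 8 was -0.45, against 0.01 over all genes.

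In each of the 6, the highest Ctu1 iKO library lay below the lowest control library, where 4.31% of 9857 genes did not overlap in either direction. Cct2 ranged from 497 to 586 CPM in Ctu1 iKO and from 784 to 952 CPM in control cells. Cct8 had 953 to 1387 CPM (median 1197) in Ctu1 iKO and 1468 to 1894 CPM (median 1518) in control cells. Cct6a came closest to overlap, with 196 to 292 CPM (median 256) against 299 to 373 CPM (median 355), and Cct7 had 827 to 954 CPM (median 909) against 1009 to 1272 CPM (median 1130).

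These 2 sets of libraries were paired by number (r = 0.34 to 0.58, 6 pairs). With the replicate block, all 8 subunits were lower in Ctu1-deficient cells, Cct5 at -0.27 ± 0.06 (edgeR, adjusted p = 0.012) and Cct3 at -0.22 ± 0.05 (adjusted p = 0.0117) included, and 14.4% of all genes were called. Cct2, Tcp1 and Cct4 stayed called when any 1 library was left out. Cct6a lost its call without control replicates 3, 4, 5 or 6 or Ctu1 iKO replicates 2 or 4 (adjusted p up to 0.0684), and Cct7 without control replicates 3, 4, 5 or 6 or Ctu1 iKO replicates 2 or 5 (up to 0.0679). Cct8 kept its call only without control replicate 1 or Ctu1 iKO replicates 5 or 6 (adjusted p up to 0.0984). The count of called subunits was 3 without control replicates 3, 4, 5 or 6 or Ctu1 iKO replicate 2. With library totals it was 3 as well (Cct2, Cct4 and Tcp1), and the split over all genes was 281 higher and 202 lower against 221 and 258. No subunit was called in replicates 1 and 2 alone, where no gene at all was called and the differences ran from -0.67 (Cct2) to -0.26 (Cct3), and 5 were called in replicates 3 to 6 alone, beside 6.44% of all genes.

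The transcripts of Cct2 and Cct4, the subunits whose footprints fell with torin 1 in both genotypes, had values above those with DMSO. In control cells, Cct4 had 332, 334 and 388 CPM of RNA with DMSO and 415, 413 and 441 CPM with torin 1, and Cct2 616, 628 and 635 CPM with DMSO and 695, 714 and 682 CPM with torin 1. In Ctu1-deficient cells, Cct4 had 340, 353 and 376 CPM with DMSO and 439, 391 and 520 CPM with torin 1, and Cct2 511, 546 and 498 CPM with DMSO and 586, 621 and 601 CPM with torin 1. For both genes the torin 1 libraries lay above the DMSO libraries, where the footprints lay below. With 3 libraries a group such separation is common, since transcripts of 3 of 8 subunits (Cct8 included) and 33.1% of 9617 genes did not overlap in control cells, and 2 of 8 and 30.6% of 9619 in Ctu1-deficient cells. By edgeR, the log2 changes of Cct4 were 0.25 ± 0.08 in control (adjusted p = 0.0954) and 0.34 ± 0.12 in Ctu1-deficient cells (adjusted p = 0.127). Those of Cct2 were 0.14 ± 0.06 (adjusted p = 0.18) and 0.22 ± 0.08 (adjusted p = 0.137).

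No subunit transcript passed the test with torin 1 in either genotype, where 13% of 9617 and 8.23% of 9619 genes did. At an unadjusted p under 0.05 there were 2 in each, Cct2 and Cct4, or 25% of the subunits beside 27.5% and 24.7% of all genes. DESeq2 called Cct4 in control cells and Cct2 in Ctu1-deficient cells, both higher with torin 1. These single calls of 8 (12.5%) stand beside 20.4% and 16.7% of all genes called by DESeq2. The RNA-seq libraries 1 to 3 were paired by number in all 4 comparisons (lowest r = 0.49), and the block called Cct4 (0.26), Cct2 (0.14) and Tcp1 (0.11) higher with torin 1 in control cells (44.1% of genes called). In Ctu1-deficient cells it called Cct4 (0.33) and Cct2 (0.22), with 35.2% of genes called. The transcript interaction called 0 subunits (0 at an unadjusted p under 0.05, and 0 by DESeq2) and 0 of 9616 genes by edgeR (3 by DESeq2).

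Between genotypes, 7 of 8 subunit transcripts had differences below 0 in Ctu1-deficient against control cells, and 1 passed with DMSO. This was Cct6a, with 148, 157 and 155 CPM in Ctu1 iKO against 179, 188 and 198 CPM in control cells (-0.30 ± 0.07, edgeR, adjusted p = 0.0475). Leaving out any 1 of the 6 libraries ended this call (adjusted p up to 0.188). Cct2 had 511, 546 and 498 CPM against 616, 628 and 635 CPM (-0.28 ± 0.06, adjusted p = 0.0526), and Cct8 826, 859 and 808 against 953, 982 and 992 CPM (-0.24 ± 0.06, adjusted p = 0.0704). The groups did not overlap in these 3 genes or in Cct3 and Cct5, which makes 5 of 8 subunits beside 31.5% of 9623 genes. Cct4 went the other way by 0.02 ± 0.09. The 1 call of 8 stands beside 5.14% of 10119 genes called and 1.81% called lower. With torin 1 in both arms, no subunit transcript passed (3 of 8 at an unadjusted p under 0.05, 3 by DESeq2), beside 1.31% of 9650 genes, 20% at that unadjusted p and 11.3% by DESeq2. In the same 3 of 8 the groups did not overlap, as in 26.5% of 9610 genes. These were Cct6a (-0.33 ± 0.09), Cct8 (-0.28 ± 0.09) and Cct2 (-0.20 ± 0.07), and Tcp1 had -0.24 ± 0.11. With the replicate block, 5 subunits were called lower in Ctu1-deficient cells with either treatment, namely Cct2, Cct3, Cct6a, Cct8 and Tcp1, beside 28.0% of genes with DMSO and 32.8% with torin 1.

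**Figure D3:**
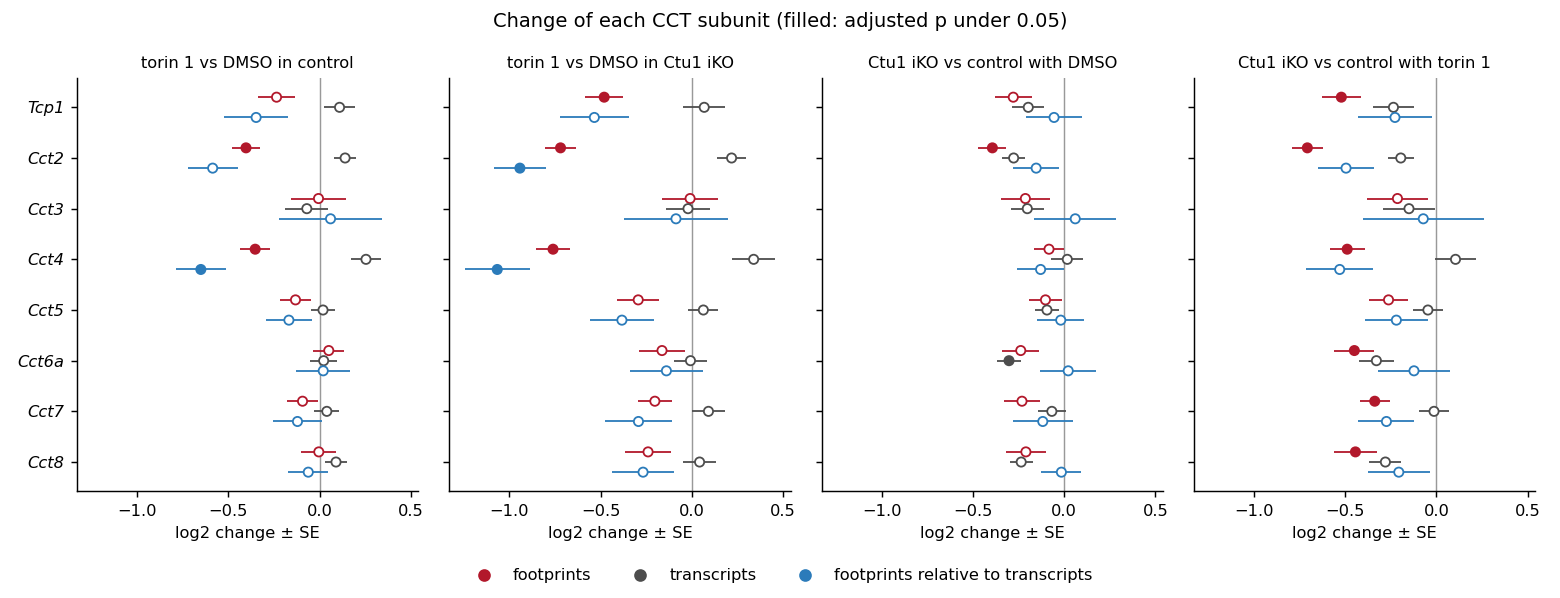
Log2 change with its SE (x axis) of each CCT subunit in 4 comparisons, for footprints (red), transcripts (grey) and footprints relative to transcripts (blue), with filled points where the edgeR adjusted p is under 0.05. With torin 1, the footprint points of Cct2 and Cct4 lie left of 0 and their transcript points right of 0 in both genotypes.

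Footprints relative to transcripts, here called translational efficiency, were compared in replicates 1 to 3, the cultures whose RNA-seq libraries were used. With torin 1, translational efficiency in Ctu1-deficient cells fell by 52.2% for Cct4 and fell by 48.0% for Cct2. The log2 ratio of footprint to RNA CPM for Cct4 was 0.96, 1.06 and 0.94 with DMSO and -0.16, 0.07 and -0.10 with torin 1. For Cct2 it was 0.68, 0.56 and 0.92 with DMSO and -0.24, -0.29 and -0.10 with torin 1. The log2 changes were -1.07 ± 0.18 (edgeR, adjusted p = 0.00532) and -0.94 ± 0.14 (adjusted p = 0.00233). Tcp1 went from 0.23, 0.19 and 0.26 to -0.39, -0.21 and -0.30, without passing (-0.53 ± 0.19, adjusted p = 0.337). The cultures of the 2 treatments did not overlap in 5 of 8 subunits (Cct2, Cct4, Cct5, Cct8 and Tcp1), beside 20% of 9507 genes. The 2 calls of 8 (25%) stand beside 1.67% of 9845 genes called and 1.58% called lower. Cct4 lost its call without the Ctu1 iKO DMSO cultures 1 (adjusted p = 0.0565) or 2 (0.0778).

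In control cells, Cct4 was called with torin 1, with log2 ratios of 1.12, 1.18 and 1.07 with DMSO and 0.39, 0.45 and 0.51 with torin 1 (-0.65 ± 0.14, edgeR, adjusted p = 0.0443). Cct2 went from 0.93, 0.75 and 0.95 to 0.17, 0.16 and 0.48 (-0.59 ± 0.14, adjusted p = 0.0815). The treatments did not overlap in 6 of 8 subunits, all but Cct3 and Cct6a, beside 15.9% of 9611 genes. The call of Cct4 was lost when any 1 of the 6 cultures was left out (adjusted p up to 0.337) and with library totals (-0.52), a scaling that put the median of all genes at 0.16. One call of 8 stands beside 1.14% of 9848 genes called and 1.07% called lower. With the culture as a block, which pairs the assays, Cct4 was called in control cells (-0.66, adjusted p = 0.0163) and Cct4 (-1.06) and Cct2 (-0.94) in Ctu1-deficient cells. With the replicate number as the block, Cct2 passed in control (edgeR, adjusted p = 0.0231) and Tcp1 in Ctu1-deficient cells (adjusted p = 0.0347) as well. Over all genes, the culture block called 1.13% in control and 1.91% in Ctu1-deficient cells, and the replicate block 1.61% and 2.33%. The other changes with torin 1 ran from -0.35 (Tcp1) to 0.06 (Cct3) in control cells and from -0.53 (Tcp1) to -0.09 (Cct3) in Ctu1-deficient cells.

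Between genotypes, translational efficiency of no subunit passed the test. With DMSO, the differences ran from -0.15 ± 0.13 (Cct2) to 0.06 ± 0.22 (Cct3), 0 of 8 subunits had an unadjusted p under 0.05, and 0 of 10386 genes were called by edgeR (399 at an unadjusted p under 0.05, 21 called by DESeq2). For Cct2, the genotype difference of -0.39 in footprints thus stood beside -0.28 in transcripts and -0.15 in their ratio. With torin 1, all 8 differences were negative, from -0.53 ± 0.18 (Cct4, unadjusted p = 0.0136) and -0.50 ± 0.15 (Cct2, unadjusted p = 0.0066) to -0.07 ± 0.33 (Cct3), and 0.111% of 9901 genes were called. The genotypes did not overlap in 1 of 8 subunits with DMSO (10.8% of 9588 genes) and in 6 of 8 with torin 1 (13.5% of 9525 genes). DESeq2 called 1 subunit there, Cct2 (-0.49, adjusted p = 0.0401), and 99 of the 9901 genes. Cct6a (-0.12 ± 0.20) and Cct8 (-0.21 ± 0.17), called in footprints between genotypes with torin 1, had transcript differences of -0.33 and -0.28.

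**Figure D4:**
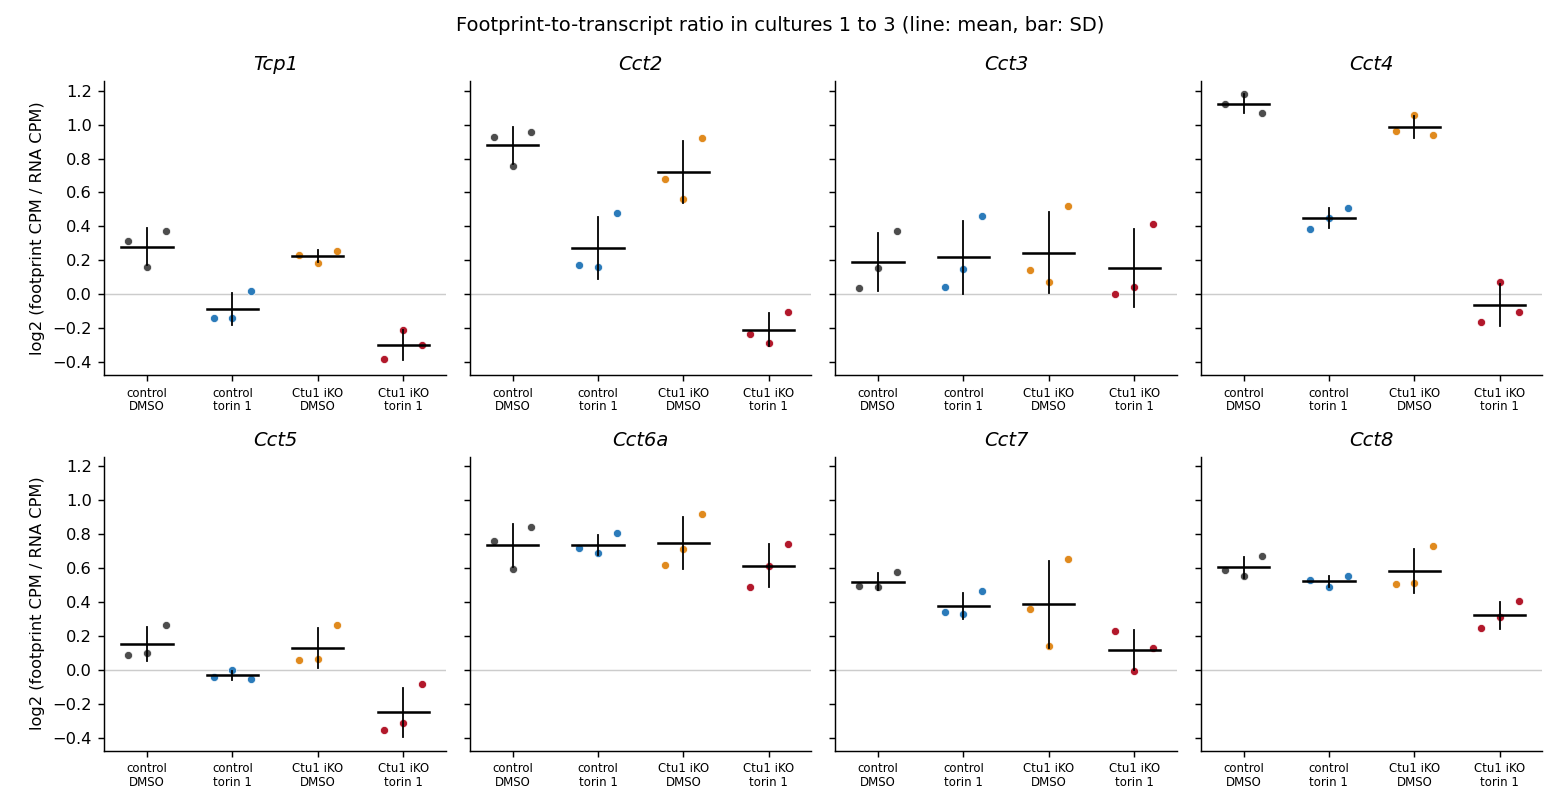
Log2 ratio of footprint to RNA CPM for each CCT subunit, with 1 point for each of cultures 1 to 3 in the 4 groups, a line at the mean and a bar of 1 SD. Cct4 falls from a mean of 1.12 to 0.45 in control and from 0.99 to -0.06 in Ctu1-deficient cells, while the means of Cct6a stay between 0.62 and 0.75.

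The share of each subunit in the pool of chaperonin footprints was also compared, and the ranges were apart in 9 of 32 such comparisons. Whether the subunits differed from each other in their changes was not tested. This share needs no scaling for depth, but as the 8 shares add up to 100%, one cannot fall without others rising, and it was added after the values above were seen and is given without a test. In control cells, Cct2 made up 13.4% to 16.7% of the footprints on the 8 subunits with DMSO and 11.7% to 12.8% with torin 1. In Ctu1-deficient cells, its share was 12.5% to 14.0% with DMSO and 8.78% to 11.1% with torin 1. The share of Cct4 was 9.62% to 10.7% with DMSO and 8.33% to 9.11% with torin 1 in control cells. In Ctu1-deficient cells it was 10.04% to 12.05% with DMSO and 7.76% to 8.76% with torin 1. The ranges of both subunits were apart in both genotypes. The share of Tcp1 was also apart in Ctu1-deficient cells, with 12.3% to 12.9% with DMSO and 10.7% to 11.9% with torin 1. Cct3 had the largest gain in mean share, from 16.1% to 19.9% in Ctu1-deficient cells, where its ranges overlapped (15.1% to 17.8% and 16.1% to 22.7%) and were apart in replicates 3 to 6 alone (means 16.6% and 21.2%). Cct6a took 3.99% to 4.31% with DMSO and 4.62% to 4.90% with torin 1 in control cells. Between genotypes, the ranges were apart for Cct5, whose share was 6.18% to 6.79% in control and 6.84% to 7.38% in Ctu1-deficient cells with DMSO, and 5.98% to 6.95% against 7.03% to 7.66% with torin 1. With torin 1, the share of Cct2 given above was also apart, lower in Ctu1-deficient than in control cells. In RNA, the mean share of Cct4 was 6.79% with DMSO and 7.75% with torin 1 in control, and 7.75% and 9.21% in Ctu1-deficient cells.

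**Figure D5:**
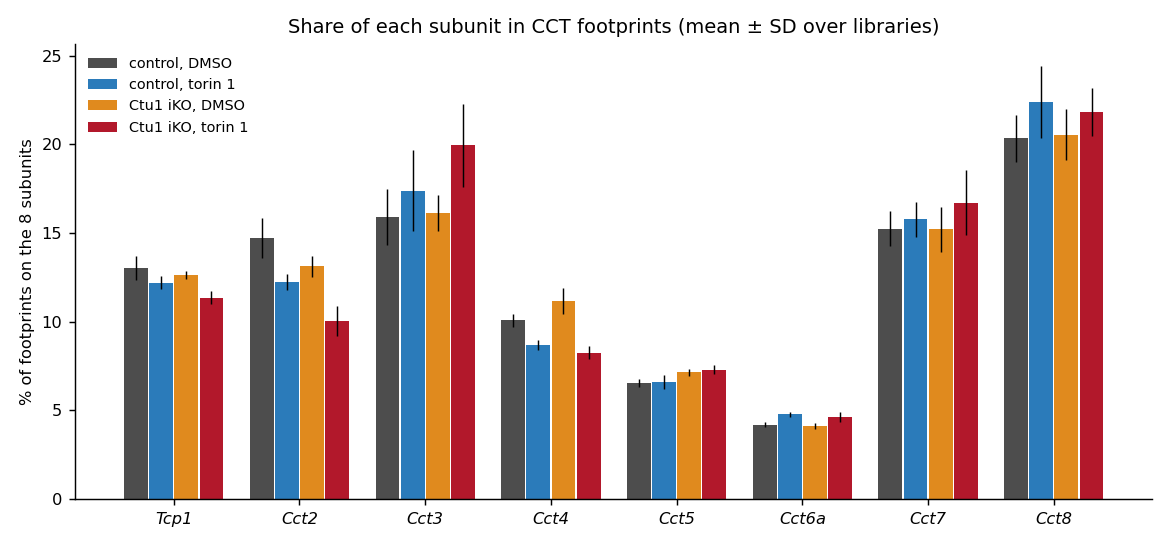
Share of each subunit in the footprints on all 8 CCT subunits, in percent, as the mean over 5 or 6 libraries with a bar of 1 SD in the 4 groups. The bars of Cct2 and Cct4 are lower with torin 1 than with DMSO in both genotypes, and those of Cct3 are higher in Ctu1-deficient cells with torin 1 (19.9%) than with DMSO (16.1%).

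Summed over the 8 subunits, the chaperonin took 0.704% to 0.872% of TMM-scaled footprints in control cells with DMSO and 0.611% to 0.794% with torin 1. In Ctu1-deficient cells it took 0.586% to 0.739% with DMSO and 0.448% to 0.6001% with torin 1. The lowest value of each group came from replicate 1, and replicates 1 and 2 were the 2 lowest of every group. In RNA, the sum was 0.494% to 0.543% and 0.517% to 0.571% in control and 0.439% to 0.474% and 0.452% to 0.535% in Ctu1-deficient cells. A lower sum here is a lower part of all counts, and fewer ribosomes per mRNA and a change in the rest of the pool cannot be told apart in such data.

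Across the 23 footprint libraries, each subunit correlated with the mean of the other 7, with Pearson's r of log2(CPM + 1) from 0.64 (Cct3) to 0.98 (Tcp1). The 28 pairs of subunits had r from 0.43 to 0.94 (median 0.77). Among 8856 genes with a mean of at least 100 footprint counts, the 5 other genes most like the mean of the 8 subunits were Pcbp2 (r = 0.97), Lamp3 (0.96), Ola1 (0.96), Tuba1b (0.95) and Gm49450 (0.95). The middle of all genes was 0.01, and 5% of genes exceeded 0.71, which Cct3 did not reach. In the 12 control libraries alone, these 5 had r from 0.88 to 0.95 and others led (Ncbp3, Wdr12, Utp6, Utp4 and Dis3). There, the r of each subunit with the mean of the other 7 ran from 0.54 (Cct8) to 0.96 (Tcp1). The libraries share depth and replicate number, and these correlations are descriptions.

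The other genes of the folding pathway are grouped by role. Prefoldin is the complex that hands nascent chains to the chaperonin. Of its 6 listed subunits, footprints on 1 fell with torin 1 in control cells (Pfdn5, -0.45 ± 0.08, edgeR, adjusted p = 0.00291). In Ctu1-deficient cells 2 fell, Pfdn5 (-1.13 ± 0.14, adjusted p = 7.07e-05) and Pfdn1 (-0.54 ± 0.12, adjusted p = 0.0119). Pfdn5 also passed the interaction (-0.67 ± 0.15, adjusted p = 0.0368). Between genotypes, 0 passed with DMSO and 1 with torin 1 (Vbp1, -0.46 ± 0.11, adjusted p = 0.0222). These 1, 2, 0 and 1 calls of 6 were all lower, beside 4.33%, 4.52%, 1.04% and 2.6% of all genes called lower. The medians of the 6 were -0.02, -0.14, -0.03 and -0.32 in the 4 comparisons, and 0 of 6 prefoldin transcripts passed, beside 13%, 8.23%, 5.14% and 1.31% of all genes. In translational efficiency, 1 of 6 was called with torin 1 in Ctu1-deficient cells (Pfdn5, -1.36 ± 0.18, adjusted p = 0.000855), beside 1.67% of all genes.

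Among 9 partners of the chaperonin, which deliver clients or adjust its cycle, Hspa8, the constitutive cytosolic Hsp70, changed most. Its footprints fell with torin 1 in control (-0.72 ± 0.10, edgeR, adjusted p = 0.00018) and in Ctu1-deficient cells (-1.23 ± 0.07, adjusted p = 2.84e-08), and the interaction passed (-0.51 ± 0.12, adjusted p = 0.0376). With torin 1, they were lower in Ctu1-deficient than in control cells (-0.76 ± 0.10, adjusted p = 0.000265). The Hsp40 co-chaperone Dnaja1 fell with torin 1 in control cells (-0.34 ± 0.09, adjusted p = 0.0321), and Stip1, which links Hsp70 to Hsp90, was lower in Ctu1 iKO with DMSO (-0.27 ± 0.07, adjusted p = 0.0483). In all, 2, 1, 1 and 1 of the 9 were called in the 4 comparisons, all lower, beside 4.33%, 4.52%, 1.04% and 2.6% of all genes called lower. A single call of 9 is 11.1%. None was called in transcripts, beside 13%, 8.23%, 5.14% and 1.31% of all genes. In translational efficiency, Hspa8 was called with torin 1 in control (-0.84 ± 0.17, adjusted p = 0.0332) and in Ctu1-deficient cells (-1.53 ± 0.14, adjusted p = 3.72e-05), the 1 call of 9 in each, beside 1.14% and 1.67% of all genes. The phosducin-like partners Pdcl and Pdcl3 were not called.

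Of 6 tubulin folding cofactors, which take tubulin over from the chaperonin, none passed in any of the 14 comparisons (lowest adjusted p for footprints 0.0725, Tbca with torin 1 in Ctu1-deficient cells, -0.53 ± 0.17). As 0% to 13% of all genes were called in these comparisons, 0 of 6 does not set them apart. Of 22 client genes, footprints on 1, 3, 0 and 4 were lower in the 4 comparisons and none was higher, beside 4.33%, 4.52%, 1.04% and 2.6% of all genes called lower. The 1 call of 22 in control cells, 4.55%, was at that background. Their transcripts had 1 higher and 3 lower with torin 1 in control cells (18.2%, beside 13% of all genes called) and 2 higher and 1 lower in Ctu1-deficient cells (13.6%, beside 8.23%). With torin 1, the cyclin Ccne1 fell in control (-0.86 ± 0.12, edgeR, adjusted p = 0.000167) and in Ctu1-deficient cells (-1.13 ± 0.17, adjusted p = 0.000563), and its transcript fell as well (-0.95 ± 0.10 and -1.04 ± 0.14). Footprints on gamma-actin, Actg1, fell in Ctu1-deficient cells (-0.65 ± 0.06, adjusted p = 6.66e-06), with a called interaction (-0.44 ± 0.09, adjusted p = 0.0166), and beta-tubulin Tubb5 fell there (-0.46 ± 0.07, adjusted p = 0.000626). Both also passed in translational efficiency there (-0.90 ± 0.15 and -0.76 ± 0.14), as 2 of 22 clients (9.09%) beside 1.67% of all genes, while 0 of 22 passed in control cells, beside 1.14%. With torin 1, Tubb5 (-0.54), Actg1 (-0.35), Tubb4b (-0.41) and Tuba1b (-0.43) were lower in Ctu1-deficient than in control cells.

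The mitochondrial chaperonin of the other class is made of Hspd1 (Hsp60) and its lid Hspe1 (Hsp10). In control cells neither was called with torin 1 (-0.31 ± 0.10 and -0.26 ± 0.08, edgeR, adjusted p = 0.088 and 0.0772). In Ctu1-deficient cells both fell (-0.52 ± 0.09, adjusted p = 0.00167, and -0.52 ± 0.13, adjusted p = 0.0229). Hspd1 was lower in Ctu1 iKO with DMSO (-0.46 ± 0.08, adjusted p = 0.0122), in transcripts too (-0.37 ± 0.08, adjusted p = 0.0438), and with torin 1 (-0.67 ± 0.11, adjusted p = 0.00195). Of the pair, 0, 2, 1 and 1 were thus called lower in footprints in the 4 comparisons, beside 4.33%, 4.52%, 1.04% and 2.6% of all genes. For scale and beside the same shares, 76 of 79 cytosolic ribosomal protein genes fell in footprints with torin 1 in control cells (median -0.97) and 78 of 79 in Ctu1-deficient cells (median -1.59). The lowest changes among the chaperonin subunits, -0.40 (Cct2) in control and -0.76 (Cct4) in Ctu1-deficient cells, were smaller than these medians. With DMSO, 0 of 79 ribosomal protein genes differed between genotypes (median -0.08), where Cct2 was called at -0.39, and with torin 1 70 of 79 did (median -0.71), which was the size of the difference in Cct2.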

How the data were processed

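Ribosome footprints and poly(A) RNA were counted per gene in 23 cultures, giving 46 tables. The deposited values are raw read counts per gene. Every RNA-seq count is even, so both reads of each fragment may have been counted, and RNA totals may exceed the number of fragments. Per the study's methods and the submitters' processing notes, the authors trimmed footprint reads with cutadapt 3.4, processed UMIs with UMI-tools 1.1.1, removed rRNA with BLAT, dropped short fragments and counted with STAR 2.5.3a. The methods name a human build and the processing notes name mm10, and collapse of UMIs and the strand setting are not given in the sources used here. No entry had a maximum footprint count under 100. There were 10420 entries with DMSO and 9936 entries with torin 1, and 23 entries of 11 repeated symbols were left out.

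Counts were tested with edgeR 4.0.16 (quasi-likelihood) in R 4.3.3, with TMM scaling, a mean count of at least 10 and a Benjamini-Hochberg adjusted p under 0.05 over all genes. Translational efficiency was the interaction of assay and group in replicates 1 to 3. Printed levels are TMM-scaled CPM over the 9857 shared symbols. RNA-seq replicates 4 to 6 were left out of the main tests, because 6 of them went against their treatment labels. Alternatives were DESeq2 1.42.0, scaling by library totals, no count filter, replicate or culture blocks, subsets of replicates, leaving out each library and, chosen after seeing the data, halved RNA counts. No pair of libraries of a group agreed within sampling noise.

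Same-numbered samples counted as paired where the correlation of their deviations from the group means exceeded 0.1 in every pair. This held for footprints of torin 1 and DMSO in control cells (0.46 to 0.66), for footprints of the genotypes with torin 1 (0.34 to 0.58) and for all RNA-seq comparisons (0.49 to 0.84). The series design pairs RNA and footprints of 1 culture.

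All 8 subunits are named, with at most 4 members of each other list by p, and the 5 genes most correlated with the subunits. Members and lists were chosen with earlier results of these data known. Codons, promoters and start windows came from RefSeq on GRCm38.p6, where 10192 of 10453 symbols matched (97.5%).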

Additional observations from a re-analysis of the deposited data

How the results depend on the processing

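Counts are given in the order torin 1 in control cells, torin 1 in Ctu1-deficient cells, genotype with DMSO, genotype with torin 1 and interaction. The subunits called numbered 2, 3, 1, 6 and 0 in footprints, 0, 0, 1, 0 and 0 in transcripts and 1, 2, 0 and 0 in translational efficiency. DESeq2 called 1 subunit in the footprint interaction, 1, 1, 3 and 3 in the transcript comparisons, 2 in translational efficiency with torin 1 in control cells and 1 between genotypes with torin 1. Library totals gave 1 in footprints with torin 1 in control cells, 3 between genotypes with torin 1, 2 in transcripts between genotypes with DMSO and 0 in translational efficiency with torin 1 in control cells. Replicates 1 and 2 alone gave 0, 1, 0 and 0 in footprints, and 1 and 3 in transcripts of torin 1 in control cells and of the genotypes with DMSO. Replicates 1 to 3 alone gave 0, 2, 0 and 0 in footprints, and replicates 3 to 6 alone 2, 3, 0 and 5. All RNA-seq libraries as labelled gave 1 and 5 in transcripts of torin 1 in control cells and of the genotypes with DMSO, all replicates of both assays gave 2 in translational efficiency between genotypes with torin 1, and all footprint replicates with RNA-seq replicates 1 to 3 gave 2 with torin 1 in control cells. Smaller sets of libraries have less power by construction, and the cause of the other differences was not tested.

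With the replicate block, 4, 5, 1, 8 and 2 subunits were called in footprints, 3, 2, 5, 5 and 0 in transcripts and 2, 3, 0 and 0 in translational efficiency. The block also raised the number of all genes called wherever that number is given, so these counts alone do not set the subunits apart. For footprints of torin 1 in Ctu1-deficient cells and of the genotypes with DMSO, that number is not given here. For footprints of torin 1 in Ctu1-deficient cells, the genotypes with DMSO and the interaction, same-numbered samples did not all correlate (lowest r -0.04 and -0.10), and there the block called Cct2 (-0.33, edgeR, adjusted p = 0.0436) and Cct4 (-0.43, adjusted p = 0.00917) in the interaction. Leaving out 1 library at a time gave 3 to 6 subunits in footprints between genotypes with torin 1, 0 to 1 in transcripts with torin 1 in control cells, 0 to 0 in transcripts between genotypes with DMSO, 0 to 1 in translational efficiency with torin 1 in control cells and 1 to 2 in Ctu1-deficient cells.

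Among the values of single subunits, apart from fits that leave out 1 library, 701 kept their direction and side of the threshold or changed sign without passing it, 47 gained a call and 28 lost one. The sign changed in 35, of which 13 were with library totals, to values from -0.07 to 0.18 that passed the threshold in neither fit. Leaving out 1 library, 995 kept them or changed sign without passing (80 signs changed), 2 gained a call and 35 lost one. Halved RNA counts changed no call of a subunit. The shares in replicates 3 to 6 alone, an alternative chosen after seeing the data, moved by less than 1 SD in 32 of 32 values, and in 5 of them ranges that overlapped came apart. Over all genes, library totals moved the transcripts called higher and lower from 553 and 697 to 445 and 891 and 358 and 434 to 289 and 650 with torin 1, and from 92 and 34 to 57 and 41 between genotypes with torin 1. In translational efficiency of Ctu1-deficient cells with torin 1 they moved from 8 and 156 to 26 and 123.

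DESeq2 called 700 and 842 genes between genotypes in footprints (277 and 479 by edgeR), 107 in their interaction (63), 1963, 1609, 1530 and 1092 in transcripts (1250, 792, 520 and 126), and 234, 318, 21 and 99 in translational efficiency (112, 164, 0 and 11). The replicate block called 2019 and 1425 genes in the paired footprint comparisons (714 and 479 without), 129 in the interaction, 4239, 3385, 2830 and 3169 in transcripts, and 35 in translational efficiency between genotypes with torin 1. In footprints, replicates 1 and 2 alone called 134, 146, 0 and 0 genes, replicates 1 to 3 alone 138, 178, 2 and 1 (714, 788, 277 and 479 with all), and replicates 3 to 6 alone 184 between genotypes with DMSO. In transcripts, replicates 1 and 2 alone called 1547 and 11 genes between genotypes, and all libraries as labelled 0 with torin 1 in Ctu1-deficient cells and 2676 and 0 between genotypes. In translational efficiency, all replicates as labelled called 253 with torin 1 in Ctu1-deficient cells and 5 and 112 between genotypes, all footprint replicates 2 and 60, the culture block 1 with DMSO and library totals 3 with torin 1. Leaving out 1 library gave 143 to 285 and 301 to 572 genes between genotypes in footprints and 412 to 1233, 124 to 1121, 0 to 509 and 1 to 405 in the 4 transcript comparisons. Without 1 culture, translational efficiency called 61 to 104, 104 to 162 and 0 to 2 genes in control, in Ctu1-deficient cells and between genotypes with torin 1.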
